A study of Rattus norvegicus with 6 samples.

Results

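The 150 genes described here were higher in CNT 3 and control 3, the third-replicate cultures of both substrates, than in CNT 1, CNT 2 and control 2. They were chosen by measured values. For each of 14217 genes, 1 probe set (a group of short oligonucleotides that reads 1 transcript) was taken, and the mean of CNT 3 and control 3 minus the mean of CNT 1, CNT 2 and control 2 was computed on the log2 scale. A gene was kept where the lower of the first 2 arrays lay above the highest of the other 3, which held for 2735 genes (19.2% of all), and the 150 with the largest difference were taken (5.48% of those kept, 1.06% of all). Control 1 entered neither the difference nor the separation, and took part only in the mean over the 6 arrays by which each gene's probe set was picked.

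The study asked how a carbon nanotube surface affects developing spinal neurons. Dissociated spinal cord cultures from rats of postnatal day 1 to 4 were grown on glass coated with multiwalled carbon nanotubes (CNT cultures, n = 3) or on glass coated with polyornithine (control cultures, n = 3), in a medium that held horse serum and nerve growth factor, and RNA was taken at 8 days in vitro. The labels name the strain as Sprague-Dawley and the methods as Wistar. The labels call the 3 samples of each group biological replicates and the methods speak of 3 culture series, but no source states that CNT 3 and control 3 came from the same series. Such cultures hold glia, microglia, fibroblasts and vessel-wall cells beside neurons, and in bulk RNA fewer cells of a type and less RNA per cell cannot be told apart.

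Dissociating nervous tissue injures cells, and mixed cultures then change as debris is cleared, dividing cells expand and neurons reconnect. Microglia and macrophages respond to debris and to danger signals by secreting cytokines of the interleukin-1 family, interleukin-6 and chemokines, together with proteases that cut matrix. Fibroblasts and pericytes from the meninges and vessels deposit matrix and multiply in serum, while neurons are set apart by their transmitters, peptides and vesicle proteins.

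Neuronal markers were measured in every culture (24 genes; mean log2 level 8.90 to 9.01 in CNT cultures and 8.78 to 9.13 in control cultures), as were those of microglia and macrophages (23 genes; 12.13 to 12.55 in CNT cultures and 11.71 to 12.29 in control cultures). All levels are log2 values from robust multi-array averaging (RMA), in which 1 unit is a doubling. The beta-actin 3′ minus 5′ signal, a sign of RNA or labelling quality, was 0.92, 2.20 and 1.72 in CNT 1 to 3 and 2.20, 0.62 and 0.66 in control 1 to 3. It did not divide the high arrays from the low ones, and its part in the results was not tested.

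The difference ran from 1.38 to 3.70 over the 150 genes, with a median of 1.64, against a median of -0.05 over all genes. It passed 4-fold in 32 of them. The gap between the lower of the 2 high arrays and the highest of the 3 low arrays was 0.16 to 3.23, with a median of 0.99. The genes leaned to the dim side, with a median level of 8.82 over the 6 arrays against 9.70 over all genes. Of the 150, 41 were above that general median and 102 above the dimmest 30% of genes, and the lowest mean was 4.67. Flywch2, Ramp3 and Abcb1a lay just inside the limit and Bnc2, Lamp5 and Ifitm1 just outside it, all at a difference of 1.38. By what their products do, 112 of the 150 fell into 9 groups, which were set after the values were seen, and 38 were left ungrouped.

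**Figure D1:**
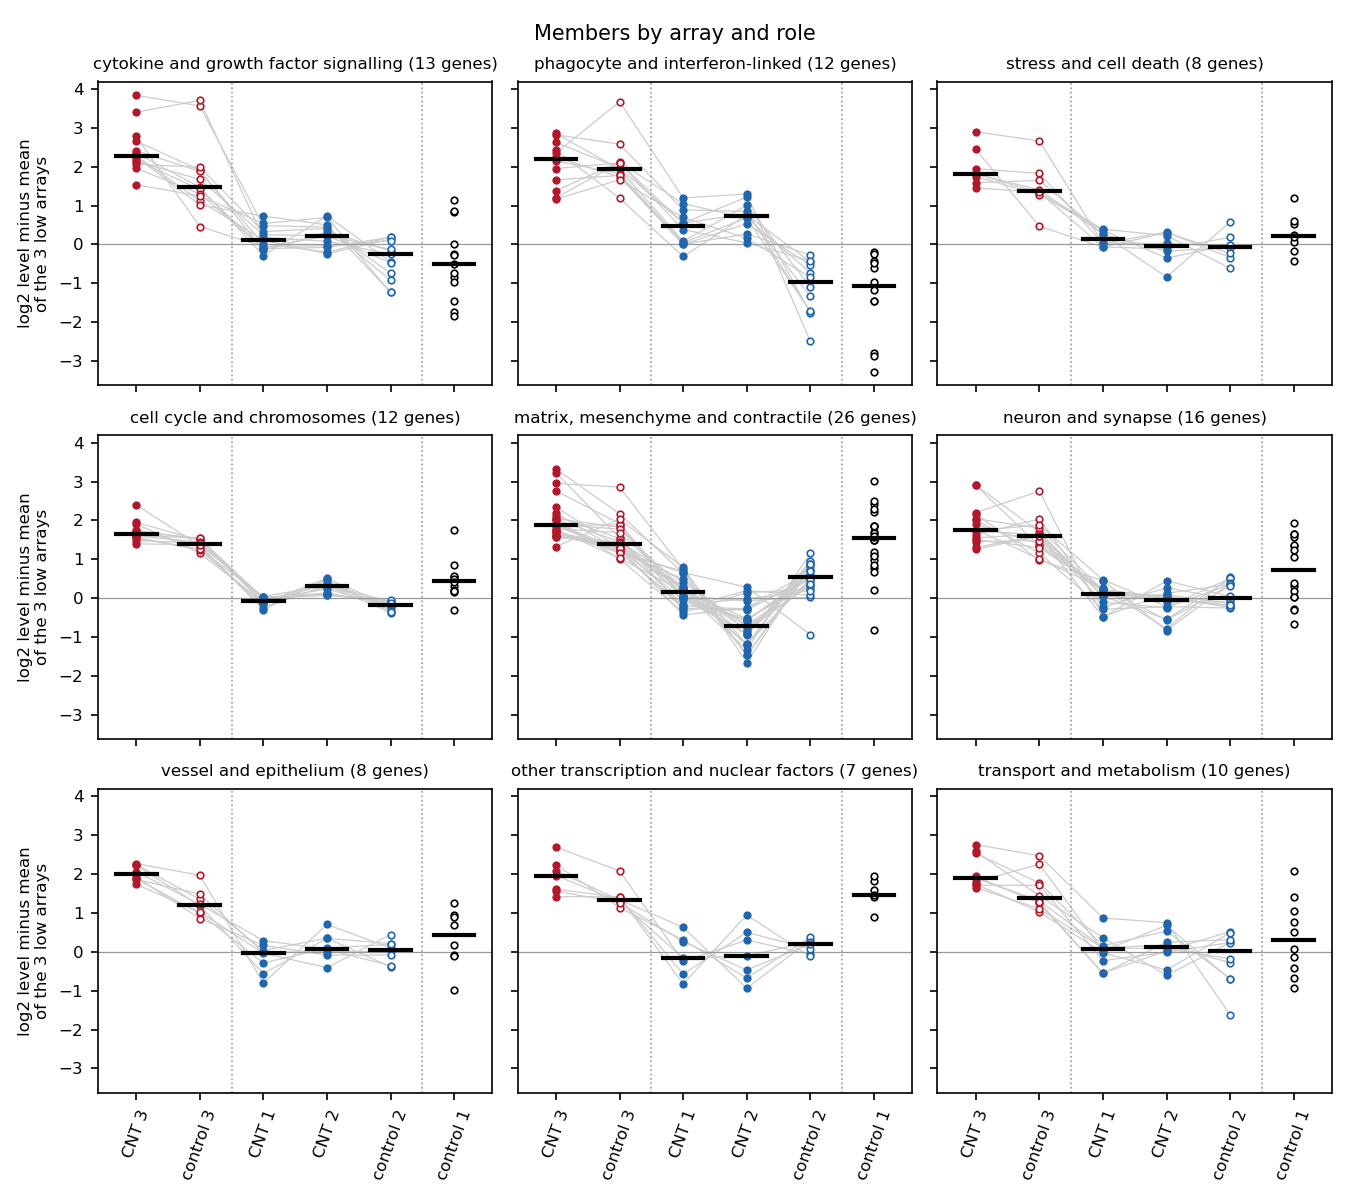
Log2 level of each grouped gene minus its mean on the 3 low arrays, in 9 panels by role; points are genes, filled for CNT and open for control, and bars are medians, with the high arrays left, the low arrays in the middle and control 1, left out of the difference and the separation, at the right. Control 1 lies near the high arrays for the matrix genes (median 1.56) and below the low arrays for the phagocyte genes (median -1.07).

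The 2 genes of largest difference, Cxcl2 and Gdf15, encode secreted signals. In all, 13 genes encode cytokines, growth factors or their receptors, with a median difference of 1.90. Cxcl2, a chemokine that draws neutrophils, measured 12.21 in CNT 3 and 11.94 in control 3, against 8.86 in CNT 1, 8.82 in CNT 2 and 7.45 in control 2, and 7.54 in control 1. Gdf15, a stress-induced member of the TGF-beta superfamily, measured 11.53 in CNT 3 and 11.83 in control 3, against 8.30 in CNT 1, 8.21 in CNT 2 and 7.87 in control 2, and 7.64 in control 1. In both genes the high pair stood over 3 log2 units above every other array, and control 1 lay with the low arrays.

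The interleukins of acute inflammation had smaller differences. Il6, which encodes the cytokine interleukin-6, measured 9.76 in CNT 3 and 9.23 in control 3, against 7.37 in CNT 1, 7.15 in CNT 2 and 7.54 in control 2, and 7.36 in control 1. Il1b, which encodes interleukin-1 beta, measured 11.47 in CNT 3 and 10.60 in control 3, against 8.84 in CNT 1, 9.86 in CNT 2 and 8.68 in control 2, and 8.84 in control 1. Il1a, which encodes interleukin-1 alpha, measured 9.97 in CNT 3 and 9.21 in control 3, against 7.70 in CNT 1, 8.02 in CNT 2 and 7.67 in control 2, and 7.06 in control 1. In each of them CNT 3 was the highest array and control 3 the next, and control 1 was within or below the low arrays.

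Areg encodes amphiregulin, a ligand of the epidermal growth factor receptor. Its level was 8.69 in CNT 3 and 7.95 in control 3, against 5.88 in CNT 1, 6.35 in CNT 2 and 5.87 in control 2, and 5.79 in control 1. Receptors and binding proteins moved on the same arrays: Il18bp, which binds interleukin-18, had a difference of 2.02, Il7r, the interleukin-7 receptor, 1.90, Il1r2, the decoy receptor of interleukin-1, 1.63, and Il2rg, the receptor chain shared by several interleukins, 1.39. Cxcl10, a chemokine induced by interferon, had a difference of 1.63. Its gap was 0.29, with 11.12 in CNT 1 and 10.89 in CNT 2 but 9.16 in control 2. Bmp5, a bone morphogenetic protein, differed most between the 2 high arrays, at 7.85 in CNT 3 and 5.54 in control 3.

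Promoters are printed for some of the secreted signals and for Mmp12, picked because they held a match. The motifs are letters bound by NF-kB and AP-1, transcription factors of the inflammatory response. RefSeq promoter windows (build GRCr8, 250 bases before to 50 after the start site) matched 110 of the 150 genes and 11700 genes in all. The motif GGNNTTTCC, part of the NF-kB consensus and chosen after the members were listed, was in 3 of 11 promoters of the cytokine group, in 6 of the 110 (5.45%) and in 6.05% of all promoters. The AP-1 motif TGANTCA was in 2 of 11 promoters of the cytokine group, in 13 of the 110 (11.8%) and in 5.43% of all promoters. Gdf15, Il1b, Areg, Bmp5, Il7r and Il18bp were among the cytokine group's promoters with neither motif. The windows run 5′ to 3′, with matches on either strand in capitals for the motif named with each window only. That of Cxcl10 also holds 1 match of GGNNTTTCC, which is not marked.
Cxcl2, chr14:17467206-17467505, minus strand, GGNNTTTCC: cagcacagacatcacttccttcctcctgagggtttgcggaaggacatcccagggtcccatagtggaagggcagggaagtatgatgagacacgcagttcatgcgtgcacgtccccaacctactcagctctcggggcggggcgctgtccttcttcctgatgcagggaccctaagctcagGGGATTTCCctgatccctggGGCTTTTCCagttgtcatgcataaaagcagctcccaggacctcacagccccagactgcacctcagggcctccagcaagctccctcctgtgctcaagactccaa
Il6, chr4:5894526-5894825, minus strand, GGNNTTTCC: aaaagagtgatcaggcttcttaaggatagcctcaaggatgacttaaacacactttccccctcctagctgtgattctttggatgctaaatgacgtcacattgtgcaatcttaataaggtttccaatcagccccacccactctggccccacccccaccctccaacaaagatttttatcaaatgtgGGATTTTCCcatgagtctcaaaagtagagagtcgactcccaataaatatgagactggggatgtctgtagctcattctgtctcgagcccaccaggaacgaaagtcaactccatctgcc
Cxcl10, chr14:15988816-15989115, plus strand, TGANTCA: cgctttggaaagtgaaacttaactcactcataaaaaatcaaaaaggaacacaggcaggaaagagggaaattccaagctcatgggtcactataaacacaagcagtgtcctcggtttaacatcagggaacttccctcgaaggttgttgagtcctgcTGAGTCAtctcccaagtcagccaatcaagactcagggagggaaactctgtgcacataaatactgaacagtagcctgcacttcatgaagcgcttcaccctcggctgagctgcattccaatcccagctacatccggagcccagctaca
Il1a, chr3:136989968-136990267, minus strand, TGANTCA: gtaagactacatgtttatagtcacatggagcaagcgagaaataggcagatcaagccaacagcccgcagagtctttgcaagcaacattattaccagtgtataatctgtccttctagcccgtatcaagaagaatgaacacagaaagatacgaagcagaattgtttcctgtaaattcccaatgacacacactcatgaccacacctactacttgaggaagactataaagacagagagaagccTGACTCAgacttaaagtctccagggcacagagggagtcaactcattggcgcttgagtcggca
Mmp12, chr8:12866402-12866701, plus strand, TGANTCA: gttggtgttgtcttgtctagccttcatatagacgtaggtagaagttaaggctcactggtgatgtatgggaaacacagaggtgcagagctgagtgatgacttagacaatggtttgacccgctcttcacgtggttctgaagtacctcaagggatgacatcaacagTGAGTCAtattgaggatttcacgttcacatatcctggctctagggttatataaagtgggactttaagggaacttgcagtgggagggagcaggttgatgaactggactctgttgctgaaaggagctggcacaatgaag
The 2 matches of Cxcl2 began 73 and 53 bases before the start site, and that of Il6 67 bases before it. The AP-1 matches began 96 bases before the start of Cxcl10, 87 before that of Mmp12 and 12 before that of Il1a. A match is a description of the letters and not evidence of binding.

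Of the other motifs, the TATA box TATAAA was in 18.2% of the 110 promoters against 8.45% of all, and the GC box GGGCGG in 42.7% against 57.5%. The median GC content was 55.2% in the members' windows and 60.0% in all. CCAAT was in 34.5% against 37.3%, TTTGAA in 14.5% against 12.3%, GGAATG in 12.7% against 11.7% and the E-box CANNTG in 72.7% against 65.0%. TGANTCA overlapped CANNTG in 3 of the members' promoters and GGNNTTTCC overlapped CANNTG in 1, both strands counted, and neither overlapped another of the 8 motifs there.

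Genes of phagocytes and of the interferon response formed a group of 12, with a median difference of 1.99. Cd5l, a scavenger-type protein secreted by macrophages, measured 11.01 in CNT 3 and 12.33 in control 3, against 9.86 in CNT 1, 9.96 in CNT 2 and 6.17 in control 2, and 7.22 in control 1. Mmp12, the macrophage elastase, measured 13.38 in CNT 3 and 13.15 in control 3, against 11.46 in CNT 1, 11.41 in CNT 2 and 8.83 in control 2, and 7.77 in control 1. Mmp9, the gelatinase B secreted by leukocytes, measured 12.71 in CNT 3 and 12.05 in control 3, against 10.63 in CNT 1, 11.30 in CNT 2 and 8.32 in control 2, and 6.81 in control 1. For all 3 the order ran from the high pair through CNT 1 and CNT 2 to control 2 and control 1, which were the lowest arrays.

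Gbp4 encodes a GTPase induced by interferon. Its level was 9.95 in CNT 3 and 9.03 in control 3, against 7.18 in CNT 1, 8.10 in CNT 2 and 6.01 in control 2, and 6.49 in control 1. Cd36, a scavenger receptor and fatty acid transporter, had a difference of 1.75. Its gap was 0.34, with 11.86 in CNT 1 and 11.49 in CNT 2 but 9.09 in control 2. The difference was 1.80 for Plscr1, an interferon-induced phospholipid scramblase, and 1.99 for Isg20, an interferon-induced exonuclease. It was 1.72 for Spic, a transcription factor that in mouse marks red pulp macrophages of the spleen. Control 2 was the lowest of the 3 low arrays in 12 of the 12 genes, against 66 of the 150. In the 12, control 1 lay below the 3 low arrays in 7 and within them in 5. The microglia and macrophage markers did not share this pattern. Of their 23 measured genes, 1 was separated, against 19.2% of all genes, and none was among the 150. Their mean log2 level was 12.13 in CNT 3 and 12.29 in control 3, against 12.48 in CNT 1, 12.55 in CNT 2 and 12.29 in control 2, and 11.71 in control 1.

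**Figure D2:**
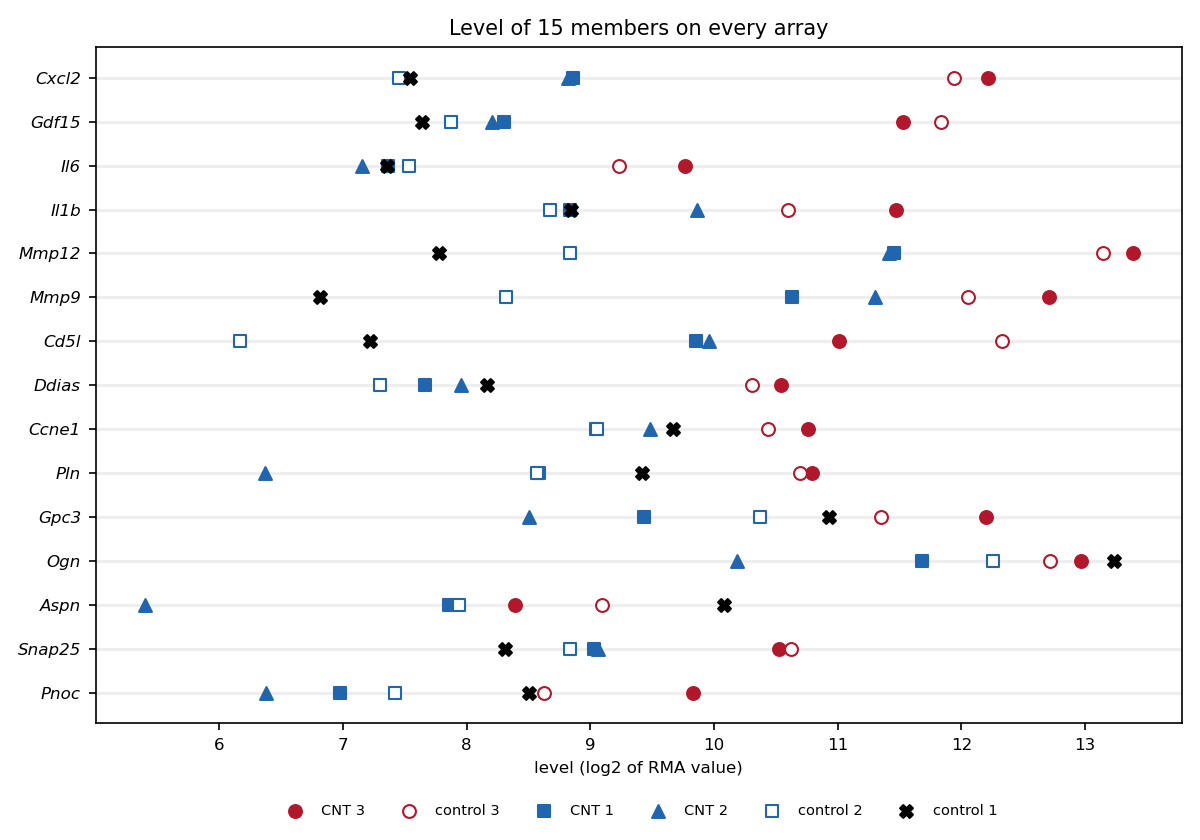
Log2 level of 15 genes on all 6 arrays, with 1 row per gene; filled marks are CNT cultures, open marks and the black cross are control cultures, and red marks are the 2 high arrays. Cxcl2 and Gdf15 show the widest gap, control 1 is the lowest array for Mmp12 and Mmp9, and control 1 is the highest for Ogn and Aspn.

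Stress and cell death genes numbered 8, with a median difference of 1.59. Ddias, which encodes a suppressor of apoptosis induced by DNA damage, measured 10.54 in CNT 3 and 10.30 in control 3, against 7.67 in CNT 1, 7.96 in CNT 2 and 7.30 in control 2, and 8.17 in control 1. Bbc3, the p53 target that encodes the pro-apoptotic protein PUMA, had a difference of 1.89, and Ddit3, which encodes CHOP of the endoplasmic reticulum stress response, 1.57. Hspa1a, an inducible heat shock protein, had 1.51, and Gadd45b, a stress-induced growth arrest gene, 1.40. Xiap, an inhibitor of caspases, had 1.62, so genes that promote cell death and genes that restrain it were both present. Fosb, an immediate early gene whose product joins the AP-1 factor, had the smallest gap of the 150, with 6.93 in control 3 against 6.77 in CNT 2.

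Cell cycle and chromosome genes numbered 12, with a median difference of 1.54. Ccne1, which encodes cyclin E1 of the entry into S phase, measured 10.76 in CNT 3 and 10.43 in control 3, against 9.05 in CNT 1, 9.48 in CNT 2 and 9.05 in control 2, and 9.67 in control 1. Ccne2, which encodes cyclin E2, measured 11.11 in CNT 3 and 11.08 in control 3, against 9.74 in CNT 1, 9.80 in CNT 2 and 9.59 in control 2, and 10.13 in control 1. Tyms, the thymidylate synthase that supplies DNA synthesis, measured 10.11 in CNT 3 and 9.82 in control 3, against 8.61 in CNT 1, 8.89 in CNT 2 and 8.20 in control 2, and 9.05 in control 1. Control 1 was above the 3 low arrays and below the high pair in each.

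Others of the group act at the centromere (Cenpu, 1.72, and Cenpk, 1.62), in sister chromatid cohesion (Esco2, 1.45) and in chromosome condensation (Smc4, 1.87). CNT 3 was above control 3 in 12 of these 12 genes, against 119 of the 150 and 57.4% of all genes. In the wider cell cycle list, 25 of 37 measured genes were separated in the same way, against 19.2% of all genes. The list had a median difference of 0.37 and a mean level of 11.05 in CNT 3 and 11.00 in control 3, against 10.49 in CNT 1, 10.84 in CNT 2 and 10.51 in control 2, and 10.68 in control 1.

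Matrix, mesenchyme and contractile genes were the largest group, with 26 members and a median difference of 1.63. Pln, which encodes phospholamban, the regulator of the calcium pump in muscle, measured 10.80 in CNT 3 and 10.70 in control 3, against 8.59 in CNT 1, 6.37 in CNT 2 and 8.57 in control 2, and 9.41 in control 1. Cpa6, a secreted carboxypeptidase, measured 10.60 in CNT 3 and 9.45 in control 3, against 7.92 in CNT 1, 5.81 in CNT 2 and 8.10 in control 2, and 9.71 in control 1. Gpc3, a heparan sulfate proteoglycan of the cell surface, measured 12.20 in CNT 3 and 11.35 in control 3, against 9.43 in CNT 1, 8.50 in CNT 2 and 10.37 in control 2, and 10.93 in control 1. CNT 2 was the lowest array for all 3, and control 1 lay above every low array.

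Sbspon is named for the somatomedin B and thrombospondin domains of its product. Its level was 9.55 in CNT 3 and 7.87 in control 3, against 6.06 in CNT 1, 6.02 in CNT 2 and 6.90 in control 2, and 7.11 in control 1. Ogn and Aspn, small leucine-rich proteoglycans of connective tissue, had control 1 above even the high pair. Ogn measured 12.97 in CNT 3 and 12.72 in control 3, against 11.68 in CNT 1, 10.19 in CNT 2 and 12.25 in control 2, and 13.24 in control 1. Aspn measured 8.39 in CNT 3 and 9.10 in control 3, against 7.86 in CNT 1, 5.40 in CNT 2 and 7.94 in control 2, and 10.08 in control 1. For Aspn, the mean of the high pair stood 1.68 above the mean of the low arrays and control 1 stood 3.02 above it.

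The remaining matrix genes included Lama2, a laminin chain of basement membranes (1.93), Loxl2, a crosslinker of collagen and elastin (1.50), Fap, a protease of activated fibroblasts (1.74), Igfbp3, a binding protein of insulin-like growth factors (1.52), Tgfbi, a matrix protein induced by TGF-beta (1.43), and Abcc9, the channel subunit that marks pericytes (1.84). CNT 2 was the lowest of the low arrays in 21 of the 26, against 50 of the 150 and 33.2% of the kept genes. Mmp7, the protease matrilysin, was the exception to the place of control 1, with 8.67 in CNT 3 and 8.17 in control 3, against 7.62 in CNT 1, 7.24 in CNT 2 and 6.02 in control 2, and 6.14 in control 1.

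Neuronal and synaptic genes numbered 16, with a median difference of 1.62. Snap25, a vesicle fusion protein of nerve terminals, measured 10.53 in CNT 3 and 10.62 in control 3, against 9.03 in CNT 1, 9.06 in CNT 2 and 8.84 in control 2, and 8.31 in control 1. Vsnl1, a neuronal calcium sensor, measured 8.52 in CNT 3 and 8.68 in control 3, against 7.27 in CNT 1, 6.58 in CNT 2 and 6.54 in control 2, and 6.53 in control 1. Celf4, an RNA-binding protein of neurons, measured 9.85 in CNT 3 and 9.64 in control 3, against 8.55 in CNT 1, 8.32 in CNT 2 and 8.16 in control 2, and 8.37 in control 1. For Snap25 and Vsnl1 control 1 was below all other arrays, while for Celf4 it was within the low arrays.

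Sv2b, a synaptic vesicle glycoprotein, measured 11.63 in CNT 3 and 11.93 in control 3, against 9.83 in CNT 1, 10.77 in CNT 2 and 10.37 in control 2, and 11.38 in control 1. Glra2, a subunit of the glycine receptor, measured 6.33 in CNT 3 and 6.23 in control 3, against 4.65 in CNT 1, 4.57 in CNT 2 and 4.56 in control 2, and 4.62 in control 1. Other probe sets of Sv2b and Glra2 did not show the separation. The members also covered neuropeptides. Pnoc, the precursor of nociceptin, measured 9.83 in CNT 3 and 8.63 in control 3, against 6.98 in CNT 1, 6.38 in CNT 2 and 7.42 in control 2, and 8.50 in control 1. Npw, which encodes neuropeptide W, measured 9.78 in CNT 3 and 8.23 in control 3, against 7.07 in CNT 1, 6.93 in CNT 2 and 6.66 in control 2, and 8.21 in control 1. CNT 3 exceeded control 3 by 1.20 log2 units for Pnoc and by 1.55 for Npw.

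Cdh22, a cadherin of the brain, measured 9.64 in CNT 3 and 10.19 in control 3, against 6.96 in CNT 1, 7.56 in CNT 2 and 7.79 in control 2, and 9.08 in control 1. The other probe set of Cdh22 did not show the separation, at -0.51. Slc17a6, the vesicular glutamate transporter of excitatory neurons, had a difference of 1.84, and Tac1, the precursor of substance P, 1.47. Control 1 reached 9.31 for Slc17a6, within the high pair, and was 6.16 for Tac1, below every other array. The neuron list as a whole had a median difference of -0.07, against -0.05 over all genes, so its median did not shift with these members. Yet 9 of its 24 genes were separated, against 19.2% of all genes, so part of the list shared the pattern. In the list of spinal and sensory neuron subtypes, 10 of 28 genes were separated. Rbfox3, which encodes the neuronal nuclear antigen NeuN and is no member, had a difference of 0.95, whereas Tubb3, the neuronal beta-tubulin, had -0.57.

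Vessel and epithelial genes numbered 8, with a median difference of 1.66. Upk1b, an uroplakin of epithelium, had 2.12, Procr, the endothelial protein C receptor, 1.80, Gjb2, which encodes connexin 26, 1.71, Krt15, a keratin, 1.67, and Emcn, the endothelial sialomucin endomucin, 1.39. CNT 3 was above control 3 in 8 of the 8, against 119 of the 150 and 57.4% of all genes. The endothelial list had a median difference of -0.15, with 3 of 14 genes separated, against 19.2% of all genes, and Emcn as its single member. The epithelial and keratinocyte list had -0.04, with 4 of 18 genes separated and Krt15 as its single member, so neither marker list as a whole was high on these arrays.

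Nuclear factors outside the other roles numbered 7, with a median difference of 1.63. Arid5b, a DNA-binding regulator of chromatin, measured 11.77 in CNT 3 and 11.16 in control 3, against 8.84 in CNT 1, 9.38 in CNT 2 and 9.02 in control 2, and 10.90 in control 1. Hes1, a target of Notch signalling, had 1.41, Tcf7, an effector of Wnt signalling, 1.63, and Klf5, a Kruppel-like factor, 1.51. Control 1 was above every low array in 7 of the 7, and within or above the high pair in 5.

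Transport and metabolic genes numbered 10, with a median difference of 1.66. Slc47a1, an exporter of organic cations, measured 10.51 in CNT 3 and 10.22 in control 3, against 8.62 in CNT 1, 8.50 in CNT 2 and 6.13 in control 2, and 7.83 in control 1. Prodh2, the hydroxyproline dehydrogenase, measured 11.02 in CNT 3 and 10.26 in control 3, against 8.64 in CNT 1, 9.02 in CNT 2 and 7.80 in control 2, and 7.56 in control 1. Control 2 or control 1 was the lowest array for both. Retinoid genes were among this group, with Crabp2, a binding protein of retinoic acid and one of the fibroblast and meningeal markers, at 12.48 in CNT 3 and 11.76 in control 3, against 10.71 in CNT 1, 10.27 in CNT 2 and 11.23 in control 2, and 12.15 in control 1. Rbp2, a retinol-binding protein, had a difference of 1.61.

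Of the ungrouped genes, 6 were among the 25 with the largest difference. Phlda2, an imprinted gene that restrains placental growth, measured 8.51 in CNT 3 and 8.82 in control 3, against 5.95 in CNT 1, 5.45 in CNT 2 and 5.89 in control 2, and 5.74 in control 1. Neurl3, an E3 ubiquitin ligase, measured 11.45 in CNT 3 and 11.25 in control 3, against 8.75 in CNT 1, 9.17 in CNT 2 and 8.52 in control 2, and 8.37 in control 1. Depdc7, a gene of unsettled role, measured 11.15 in CNT 3 and 11.07 in control 3, against 9.04 in CNT 1, 9.16 in CNT 2 and 8.12 in control 2, and 8.71 in control 1. Control 1 was within the low arrays for Phlda2 and Depdc7 and below them for Neurl3.

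Plscr2, a member of the phospholipid scramblase family, measured 10.60 in CNT 3 and 9.53 in control 3, against 8.12 in CNT 1, 6.68 in CNT 2 and 8.31 in control 2, and 9.87 in control 1. Tmem196, which encodes a transmembrane protein, measured 9.14 in CNT 3 and 7.61 in control 3, against 6.49 in CNT 1, 5.50 in CNT 2 and 6.39 in control 2, and 7.52 in control 1. Spetex2l2 measured 12.44 in CNT 3 and 12.44 in control 3, against 10.40 in CNT 1, 9.86 in CNT 2 and 10.05 in control 2, and 10.46 in control 1. Control 1 lay between the 2 high arrays for Plscr2, and between the low and the high arrays for Tmem196 and Spetex2l2. Among the most abundant of the 150, Ckap4, which encodes a protein of the endoplasmic reticulum, had a difference of 2.03.

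The place of control 1 was not fixed by the difference or the separation. It lay above the highest of the 3 low arrays in 91 of the 150 genes (60.7%), against 61.9% of the 2735 genes kept by the separation and 30.4% of all genes, so the 150 did not stand apart from the kept genes in this respect. In 10 genes it was above both high arrays, in 24 between them, in 57 between the low and the high arrays, in 30 within the low arrays and in 29 below them. It thus reached the high pair in 34 of the 150, against 40.3% of the kept genes.

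The groups by role differed widely in this count. Control 1 was above the low arrays in 25 of 26 matrix genes and in 7 of 7 nuclear factors, in 9 of 12 cell cycle genes, 9 of 16 neuronal genes, 5 of 8 stress genes, 5 of 8 vessel and epithelial genes and 5 of 10 transport genes, but in 3 of 13 cytokine genes and in 0 of 12 phagocyte genes. In the matrix group it covered a median of 89.1% of the way from the mean of the low arrays to the mean of the high pair. Since the groups were set with the values known and control 1 is a single array, these counts were not tested.

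The lists of marker and pathway genes were not trimmed by these values, but they were chosen with earlier results of these data known. They also share genes with the role groups, so they are no independent check. They gave a like division for matrix and for cytokine genes, but not for the cell cycle. Among their genes kept by the separation, control 1 was above the low arrays in 14 of 15 fibroblast and meningeal markers, 10 of 10 smooth muscle and pericyte markers and 9 of 9 basement membrane genes. The count was 0 of 10 for chemokines and cytokines, 7 of 25 for the cell cycle, 4 of 14 for immediate early genes and 3 of 9 for neuronal markers, so for the cell cycle the list and the role group lay on opposite sides of the 61.9% of the kept genes. The fibroblast and meningeal markers had a mean log2 level of 11.39 in CNT 3 and 11.20 in control 3, against 10.91 in CNT 1, 10.02 in CNT 2 and 11.24 in control 2, and 11.74 in control 1. Control 2 thus exceeded control 3 in that list, and the share of fibroblasts in the matrix genes of the 150 was not tested.

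**Figure D3:**
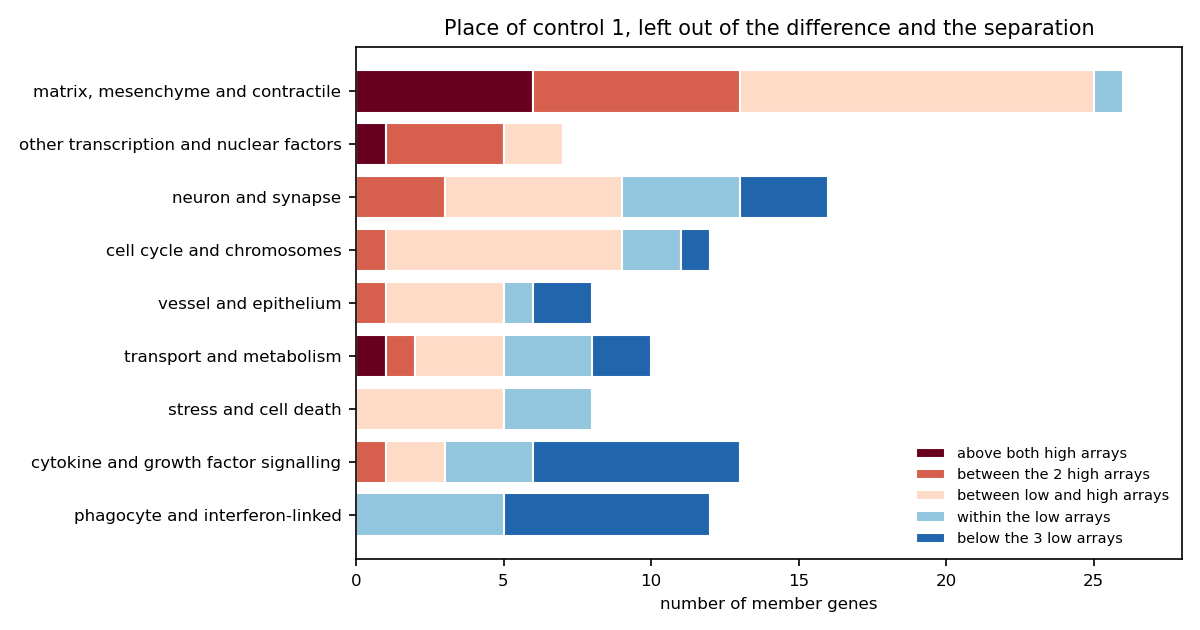
Number of genes in each role group by where control 1, left out of the difference and the separation, fell relative to the other arrays. In 13 of 26 matrix genes it reached the high arrays, and in 7 of 12 phagocyte genes it was below all 3 low arrays.

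Of the 40 lists, 22 held at least 1 of the 150 genes and 37 of the 150 were in a list. Over all genes, 19.2% were separated and 1.06% were among the 150. The chemokine and cytokine list held 4 members (Cxcl2, Il6, Il1b and Il1a) among 27 measured genes, and 10 of the 27 were separated. The fibroblast and meningeal list held 3 (Aspn, Ogn and Crabp2) among 36, with 15 separated, the cell cycle list 3 among 37, the neuron list 3 among 24 and the synapse list 3 (Glra2, Snap25 and Sv2b) among 34, with 6 separated. The median differences of these 5 lists were 0.35, 0.49, 0.37, -0.07 and -0.08 in that order, against -0.05 over all genes. The interferon list had the highest median difference, 0.95, yet 3 of its 29 genes were separated and Cxcl10 was its single member. Its mean log2 level was 11.87 in CNT 3 and 10.83 in control 3, against 11.10 in CNT 1, 11.43 in CNT 2 and 8.87 in control 2, and 9.33 in control 1. All 3 CNT arrays were thus above all 3 control arrays in that list, and control 2 was the lowest.

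**Figure D4:**
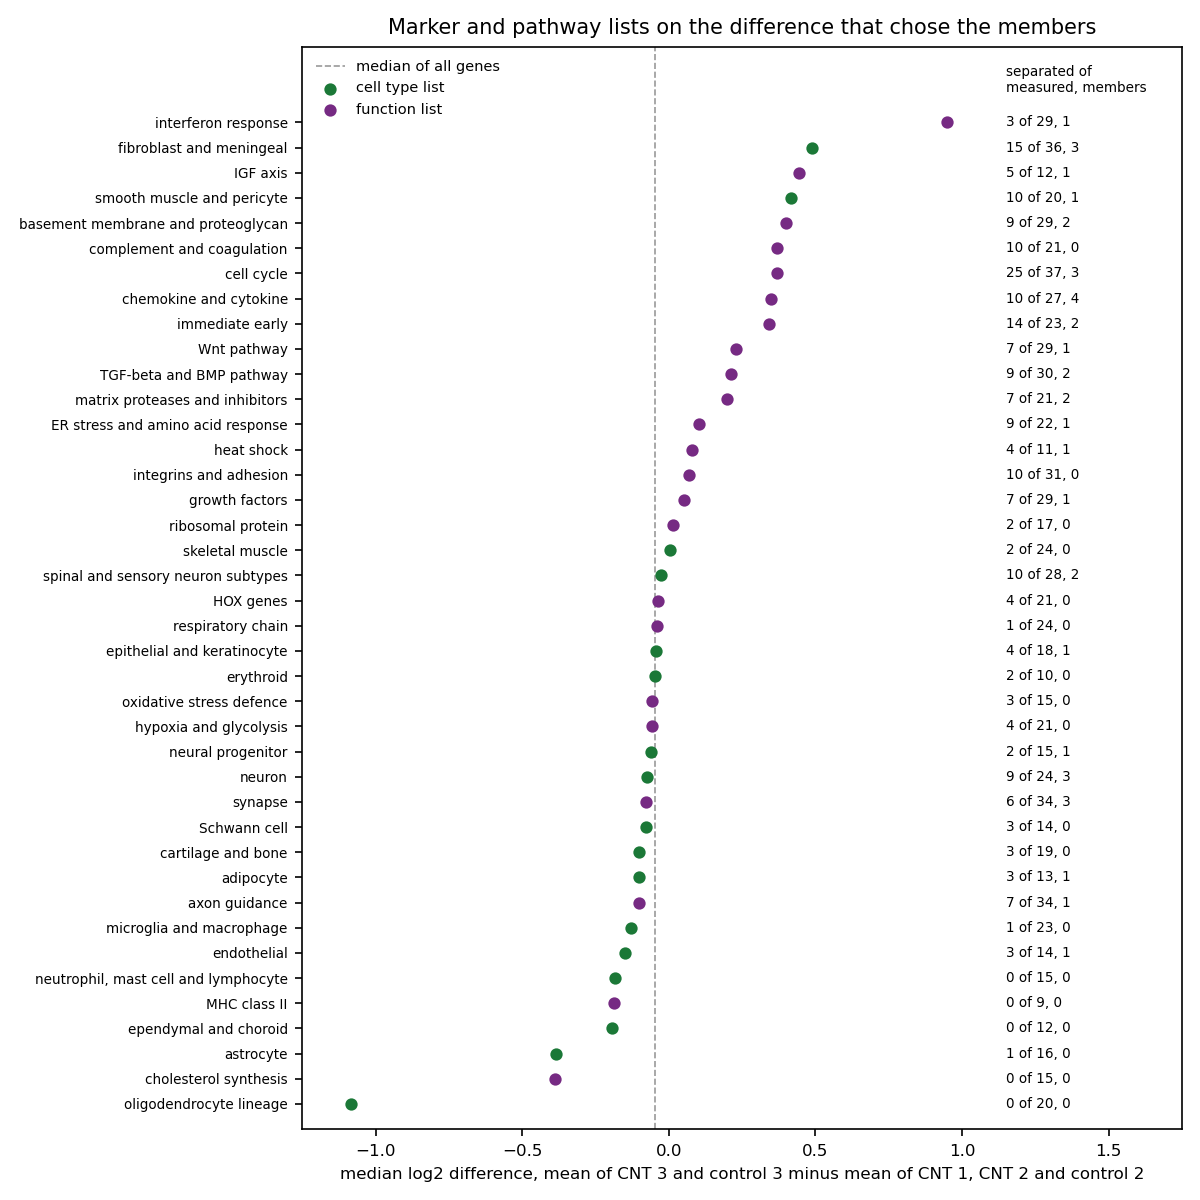
Median over each of 40 gene lists of the log2 difference that chose the genes (x axis); the numbers at the right give genes separated of genes measured, and members among the 150. The interferon list lies highest at 0.95 and the oligodendrocyte lineage list lowest at -1.08, beside a median of -0.05 over all genes (dashed line).

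The other probe sets of the same genes were not used in the choice, though they read the same RNA from the same arrays. Of the 150 genes, 44 had 60 further probe sets. The same separation held in 45 of the 60 (75.0%), against 15.7% of all probe sets not chosen, and the difference was positive in 54 (90.0%, against 40.1%). The 3 further probe sets of Ogn gave differences of 1.31 to 1.87, the further one of Mmp9 gave 2.12 and that of Vsnl1 1.12. Those of Cdh22 and Sv2b went against their genes, at -0.51 for Cdh22 and -0.78 to -0.02 for Sv2b, and that of Glra2 was near 0, at 0.04. That of Ccne2 was positive but not separated, at 0.25, as were those of Herc1 (0.02) and Nfix (0.01). For Pln, 1 further set gave 0.12 without separation and the other gave 3.33. For each of Abcc9 (-0.06) and Ddx6 (-0.02), 1 of the further sets was slightly below 0. Both further sets of Rab15, at -0.03 and 0.01, were not separated.

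Between the substrates the 150 genes showed no call. In the limma fit of CNT against control cultures over all genes, 0 of the 150 passed an adjusted p of 0.05 in either direction, where 0% of all genes were called higher and 0% lower in CNT cultures. At an unadjusted p of 0.05 the count was also 0, against 2.41% of all genes higher (342 genes) and 0.710% lower (101 genes). The choice itself fixes that the CNT and control arrays overlap for every member, so these counts say nothing about the response of the genes to the substrate. The median log2 change, CNT minus control, was -0.04 in the 150 and 0.03 in all genes, with 71 higher and 79 lower, where 58.5% of all genes were higher.

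The sign of the change differed between the role groups, which were set after the values were seen. It rests on the 5 arrays of the choice and on control 1, so it describes the order of those arrays. Control 2 was the lowest low array in 12 of 12 phagocyte genes, against 66 of the 150. CNT 2 was the lowest in 21 of 26 matrix genes, against 50 of the 150. A response to the substrate by role was not tested. CNT minus control, above 0 in 58.5% of all genes, was above 0 in 12 of 12 phagocyte genes (median 0.98) and 12 of 13 cytokine genes (median 0.58), and below 0 in 25 of 26 matrix genes (median -0.73) and in 7 of 7 nuclear factors (median -0.42). Mmp9 had the largest value, with 11.5 ± 1.06 in CNT cultures and 9.06 ± 2.70 in control cultures (SD, n = 3 each), a change of 2.49 with a standard error of 1.35 and a limma adjusted p of 0.999. Aspn had the lowest, with 7.22 ± 1.60 in CNT cultures and 9.04 ± 1.07 in control cultures (SD, n = 3 each), a change of -1.82 with a standard error of 0.90 and a limma adjusted p of 0.999. Neither difference was called by this test, and the choice fixes that the CNT and control arrays overlap for both genes.

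Within the high pair, CNT 3 was above control 3 in 119 of the 150 genes, against 57.4% of all genes, and the median of CNT 3 minus control 3 was 0.31 against 0.03. The largest values were those of Bmp5 (2.32), Fosb (1.98), Sbspon (1.68), Npw (1.55) and Tmem196 (1.54). The lowest were those of Cd5l (-1.32), Cd300c2 (-0.90), Cd36 (-0.73), Ano3 (-0.72) and Aspn (-0.71). Each is the difference of 2 arrays, without a replicate check. In the phagocyte group the pair was even, with CNT 3 higher in 6 of 12 genes, while in the matrix group it was higher in 24 of 26.

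**Figure D5:**
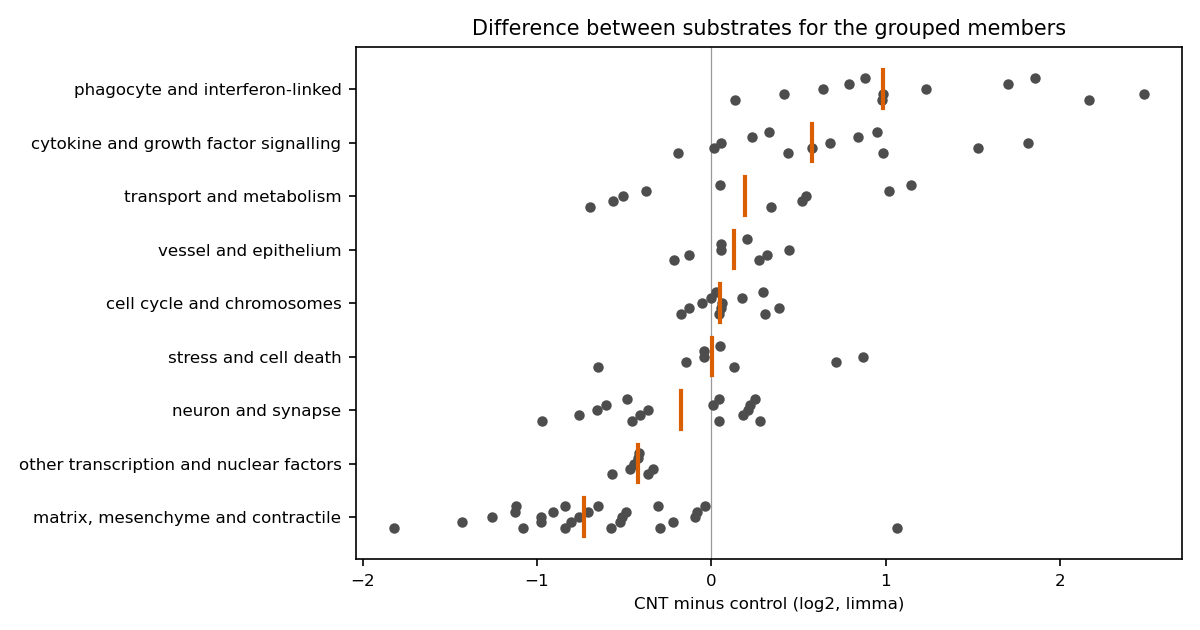
CNT minus control difference (log2, limma) of each grouped gene, by role; points are genes and orange bars are group medians. The phagocyte genes lie right of 0 and 25 of 26 matrix genes left of it, while 0 of the 150 genes passed the test.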

How the data were processed

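The authors deposited log2 expression values made from Affymetrix rat genome arrays by RMA, whose version is not given in the sources used here, for 31099 of the manufacturer's probe sets; their methods name an EntrezGene custom probe file instead. From each culture, 100 ng of total RNA was amplified and labelled. The labels name TRIzol and RNeasy for the extraction and the methods another kit.

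A gene was represented by its single-gene probe set of highest mean over the 6 arrays, with 436 probe sets of several genes, 9780 of none and 57 controls left out. The difference CNT minus control was fitted without pairing in limma 3.58.1 (lmFit, then eBayes; R 4.3.3), with Benjamini-Hochberg adjustment over 14217 genes; the script was tested on simulated data. The methods' rank product was not used, since its false positives come from permuting genes. With 3 arrays per group, the number of arrays limits the precision, and an exact two-sided permutation test of 1 gene cannot go below 0.1.

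The members and lists were chosen with earlier results of these data known, and the role groups after the values were seen. Named were the 25 members of largest difference, up to 3 per list and the 5 of highest mean. To these were added the 5 at each end of CNT minus control, of control 1 and of CNT 3 minus control 3, and those at the limit. Of all these, Sema3b, C1qtnf3, Prss35, Itgbl1, Cela1, Lrrc39 and Vof16 are named only here. Other members are examples of a role, chosen after their values were seen. Of 999 list entries, 862 were measured. Alternatives were other normalizations, filters, probe sets, fits and left-out arrays.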

Additional observations from a re-analysis of the deposited data

How the results depend on the processing

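Between CNT and control cultures, 0 of the 150 genes passed limma's adjusted p in any setting tried. At an unadjusted p the count stayed at 0 under quantile normalization, median centring, cyclic loess and the trend and robust fit. It was also 0 under the filter on dim genes and without control 1 and CNT 2 together (a setting added after the values were seen). Leaving out 1 array gave 0 to 39. Without CNT 3, 39 were lower, against 412 of all 14217 genes. Without control 3, 24 were higher, against 670, and without control 2, 2 were lower, against 115. Leaving out CNT 3 or control 3 takes a high array from 1 substrate, so the direction there follows from the choice. The median change ran from -0.72 without CNT 3 to 0.35 without control 3. With the replicate number as a block, 25 genes passed the unadjusted p (20 higher, 5 lower) and 0 the adjusted one. Over all genes, 498 higher and 179 lower passed that unadjusted p. Deviations from the group means correlated at -0.13, 0.36 and 0.51 for same-numbered cultures 1, 2 and 3, and CNT 1 was closest to control 2 (0.68), so the numbers were not taken as pairs. Of the 150 genes, 99 were shared with a choice made on each gene's probe set of largest spread and 91 with a choice that put control 1 among the high arrays; the other settings shared 102 to 150. The 91 are the members with control 1 above the low arrays, since that choice ranked genes by the same difference. Likewise, the 102 are the members left by the filter on dim genes. Why 99 were shared under the choice by spread was not tested. Control 1 was above the low arrays in 89 to 98 of the 150, and in 67 of the 102 genes above the dimmest 30%.

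Each culture gave 1 array, and the difference that chose the genes rests on 5 of them. For members of families with close copies, such as Hspa1a, H3c1, Klra5 and Gbp4, signal from the gene and from its copies cannot be told apart.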

Other observations

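Some gene lists without a member among the 150 also differed between the same arrays, on the values that chose the genes and therefore as description only. Over all genes, 19.2% were separated. Complement and coagulation genes had a median difference of 0.37, with 10 of 21 measured genes separated, and integrin and adhesion genes 0.07, with 10 of 31 separated. The oligodendrocyte lineage markers ran the other way, with 0 of 20 separated and a mean log2 level of 10.53 in CNT 3 and 10.70 in control 3, against 11.72 in CNT 1, 11.42 in CNT 2 and 11.53 in control 2, and 10.99 in control 1. Astrocyte markers had a median difference of -0.39 with 1 of 16 separated, and cholesterol synthesis genes -0.39 with 0 of 15 separated. Ribosomal protein genes, at 0.02, and respiratory chain genes, at -0.04, lay near the median of all genes.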
